A study of Mus musculus with 6 samples.

Results

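Mitosis and cytokinesis genes encode the proteins that drive a cell from G2 into mitosis, attach its chromosomes to the spindle, separate the sister chromatids and cut the cell into its daughters. A list of 45 such genes was taken by name from the 18089 genes of the deposited table, and all 45 were measured and passed the filter on low counts. RNA was sequenced from ischemic muscles of 3 WT and 3 *Gpr174*-/Y mice, all male C57BL/6 mice aged 8 to 10 weeks according to the methods, 7 days after hindlimb ischemia (HLI). For HLI the femoral artery of the left hindlimb was ligated and a segment was removed in both genotypes, and the labels give no muscle without HLI, so each value below is a level after ischemia. *Gpr174* encodes a G protein-coupled receptor of lymphocytes. The knockout is global and *Gpr174* is X-linked, so the receptor was missing from every cell type of the mouse. The tissue is whole muscle, in which fibres, regenerating fibres, immune, endothelial and connective tissue cells are read together, and in such bulk samples fewer cells of a type and less RNA per cell cannot be told apart.

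Cells in G1 or at rest hold little mRNA of these genes. Their promoters are kept off by the DREAM complex at the cell cycle genes homology region (CHR), and are switched on late in the cycle by MuvB together with B-Myb and FOXM1, often with the trimeric factor NF-Y at nearby CCAAT boxes. Mature muscle fibres do not divide, whereas satellite cells, macrophages, fibroblasts and endothelial cells can enter the cycle in muscle that regenerates after ischemia.

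The promoters of the members that rose most, of typical members and of the 2 members at the bottom of the list are shown because these genes share a known regulatory grammar. Each line holds 150 bases before the annotated start and 30 bases from it, 5′ to 3′ on the strand of the gene, from RefSeq on GRCm38.p6. Capitals mark matches to the CHR (TTTGAA or TTCGAA) and to the CCAAT box (CCAAT), each searched on both strands, so that ATTGG and TTCAAA are matches on the other strand. The regions are chr13:100786457-100786636 (minus strand) for *Ccnb1*, chr9:83834539-83834718 (plus) for *Ttk*, chr15:99651627-99651806 (minus) for *Racgap1*, chr10:69352883-69353062 (minus) for *Cdk1*, chr9:70421525-70421704 (minus) for *Ccnb2*, chr2:127133925-127134104 (minus) for *Ncaph* and chr11:43425952-43426131 (minus) for *Pttg1*.
Ccnb1: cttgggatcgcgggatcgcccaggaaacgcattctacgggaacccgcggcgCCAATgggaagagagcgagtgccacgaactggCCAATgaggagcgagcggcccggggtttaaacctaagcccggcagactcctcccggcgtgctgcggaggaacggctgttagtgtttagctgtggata
Ttk: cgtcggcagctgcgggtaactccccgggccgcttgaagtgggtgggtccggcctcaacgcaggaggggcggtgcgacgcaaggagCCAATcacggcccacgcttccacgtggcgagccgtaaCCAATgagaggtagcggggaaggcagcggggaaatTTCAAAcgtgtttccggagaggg
Racgap1: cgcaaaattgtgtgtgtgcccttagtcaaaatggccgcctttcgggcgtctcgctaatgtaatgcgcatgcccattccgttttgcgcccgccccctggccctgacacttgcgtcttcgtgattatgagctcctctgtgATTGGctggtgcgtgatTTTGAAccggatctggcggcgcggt
Cdk1: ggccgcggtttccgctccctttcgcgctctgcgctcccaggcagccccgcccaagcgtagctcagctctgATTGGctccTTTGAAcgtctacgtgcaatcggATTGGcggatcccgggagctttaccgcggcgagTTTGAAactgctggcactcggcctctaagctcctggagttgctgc
Ccnb2: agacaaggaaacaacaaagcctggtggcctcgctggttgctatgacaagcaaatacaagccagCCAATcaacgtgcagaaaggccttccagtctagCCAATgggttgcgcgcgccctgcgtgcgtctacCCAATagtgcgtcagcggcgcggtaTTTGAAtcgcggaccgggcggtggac
Ncaph: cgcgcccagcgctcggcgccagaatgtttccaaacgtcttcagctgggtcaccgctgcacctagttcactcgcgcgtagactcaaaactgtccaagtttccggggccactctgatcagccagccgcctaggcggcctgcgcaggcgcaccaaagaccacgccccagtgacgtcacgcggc
Pttg1: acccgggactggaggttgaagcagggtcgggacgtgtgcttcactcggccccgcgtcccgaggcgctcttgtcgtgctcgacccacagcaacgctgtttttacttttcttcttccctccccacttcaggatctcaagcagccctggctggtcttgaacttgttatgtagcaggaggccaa

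Among the 38 members with a promoter in the RefSeq table (250 bases before to 50 after the start), 28 held a CHR, or 73.7%. That share was 21.7% of the 27025 genes with a promoter and 16.8% of the 11404 of them tested here. A CCAAT box stood in 26 of the 38 (68.4%, against 41.1% of all genes and 42.7% of those tested). Both motifs stood in 24 (63.2%, against 9.65% and 8.27%). A CCAAT box 20 to 60 bases upstream of a CHR, the spacing seen in the *Cdk1* and *Ccnb2* lines above, was found for 17 members (44.7%). It was found for 1.72% of all genes and 1.70% of those tested. In 26 members a CHR lay between 30 bases before and 50 bases after the annotated start. Neither motif was found for *Birc5*, *Mad2l1*, *Melk*, *Mybl2*, *Ncaph*, *Nuf2*, *Nusap1* and *Pttg1*. A match says only that these letters stand in the window. Of the 40 member promoters, 33 had bases 21 to 50 after the start inside a GENCODE transcript of the gene. Whether the annotated starts are the ones used in this muscle was not tested, and no other forms of the motifs were searched. A missing match therefore holds only for the annotated start and the letters searched. The promoters of *Ccna2*, *Foxm1*, *Aurkb*, *Incenp*, *Tpx2*, *Dlgap5* and *Kif20a* were not analysed here.

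**Figure D1:**
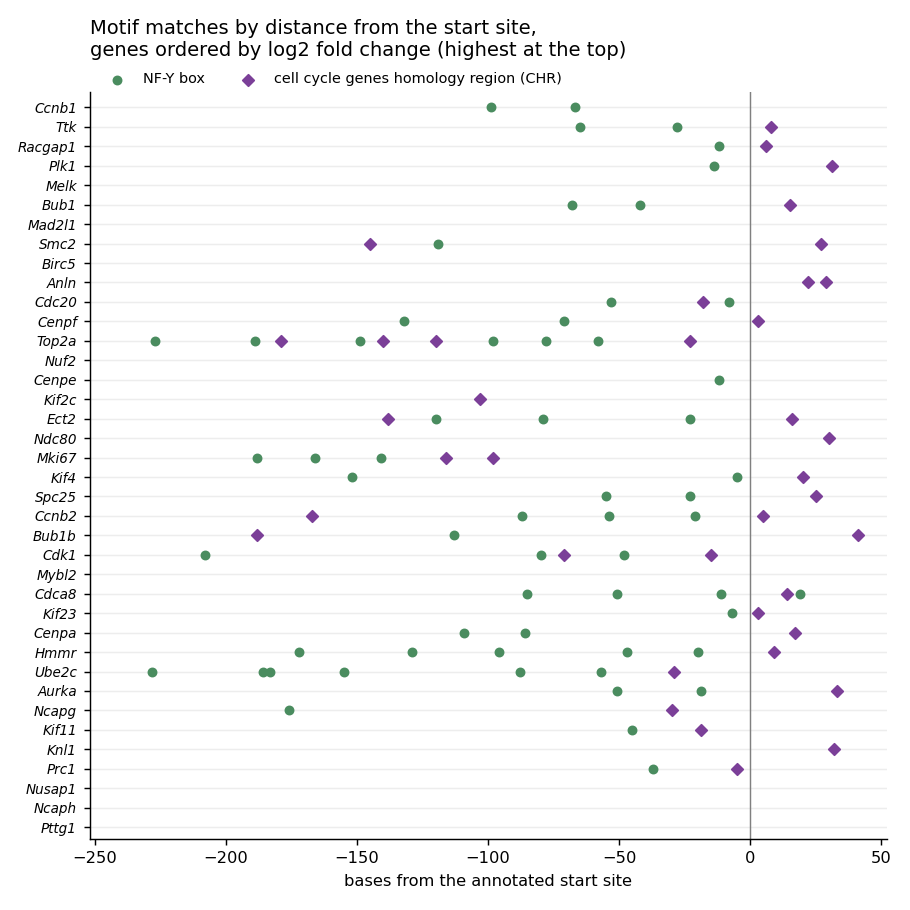
Position of each motif match in the promoters of 38 mitosis and cytokinesis genes, with bases from the annotated start on the x axis and genes ordered by log2 fold change of *Gpr174*-/Y against WT. Green circles are CCAAT boxes (NF-Y boxes), purple diamonds are CHR matches, and for *Ect2* and *Prc1* the promoter of 1 of their annotated starts is drawn; most CHR matches cluster at the start, and the 3 genes at the bottom (*Nusap1*, *Ncaph* and *Pttg1*) have no match, and 5 other genes without a match lie higher in the order.

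Between 18417077 and 18695013 estimated counts were obtained per WT library, and between 19173036 and 19394469 per *Gpr174*-/Y library. Levels are given as CPM, the count of a gene scaled to a common library size after TMM normalization. The lowest count of any member in any library was 47 (*Ttk*), far above the 3 counts taken as detectable, which correspond to between 0.155 and 0.163 CPM and cover counting error only. The estimated counts of *Gpr174* itself were 8, 2 and 5 in the WT libraries and 1, 0 and 0 after the knockout, so the labels were checked only against a transcript close to the detectable level. Replicate 2 of a group lay between replicates 1 and 3 for 71.7% of the 14395 genes tested in the WT group and for 64.1% in the *Gpr174*-/Y group. For the members these shares were 35 of 45 (WT) and 34 of 45 (*Gpr174*-/Y). The chi-square distance per gene between WT replicates was 11.9 for 1 and 2, 26.5 for 2 and 3, and 70.0 for 1 and 3. In *Gpr174*-/Y it was 1.85, 3.79 and 9.35 for the same pairs, where counting noise alone gives about 1. Replicates 1 and 3 were thus furthest apart in both groups, and *Gpr174*-/Y replicates 1 and 2 came closest to counting noise. Were the libraries of a group independent and the genes unrelated, each library would be the middle one about equally often. Genes that vary together can put the same library in the middle for most of them. The shares of replicate 2 therefore cannot decide whether the libraries were independent, and the distances were not tested for it. Every p-value and n = 3 below takes them as independent, and calls are also given from replicates 1 and 3 of each group alone. The labels do not say how the muscles were handled in batches, and p-values measure only the spread between these libraries, which may be technical in part.

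Of the 45 genes, 44 were higher in the *Gpr174*-/Y muscles and 1, *Pttg1*, was lower (edgeR's quasi-likelihood test, Benjamini-Hochberg adjusted p under 0.05). Of all 14395 genes tested, 27% were higher and 27.6% lower by the same rule, that is 54.6% in either direction. The log2 fold changes of *Gpr174*-/Y against WT had a median of 0.79 over the members and of 0.00 over all genes tested. Without *Pttg1* the members lay within a narrow band, from 0.52 (*Ncaph*) to 1.27 (*Ccnb1*), that is from 1.44-fold to 2.42-fold. Of all genes tested, 14.2% were at or above the smallest of these rises. Adjusted p-values of the members ran from 0.000433 (*Mki67*) to 0.0111 (*Ncapg*), with standard errors of the log2 fold change between 0.05 and 0.15.

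The rises were moderate in size. With the added threshold of a log2 fold change above 1, 2 of the 45 members were called higher (*Ccnb1* and *Ttk*, 4.44%), against 3.45% of all genes tested, and 0 members were lower, against 4.84%. That count of 2 became 9 without WT replicate 3 and 5 without *Gpr174*-/Y replicate 3. In a test against a 1.2-fold change 44 members were higher and 1 was lower, where 13.7% and 16% of all genes were. Levels of the groups did not overlap for any member, with 44 higher and 1 lower, while groups did not overlap for 33.1% (higher) and 32.4% (lower) of all genes tested. With replicates 1 and 3 alone, edgeR called 0 of 45 members and 0% of 14447 genes at an adjusted p under 0.05, the members' adjusted p-values being between 0.0542 and 0.113. At an unadjusted p under 0.05 it called 45 of 45 members and 34.8% of the genes. On the same 4 libraries limma voom called 0 members (0.00692% of all genes higher) and the DESeq2 Wald test called 32 members higher (6.91% of all genes) and *Pttg1* lower.

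**Figure D2:**
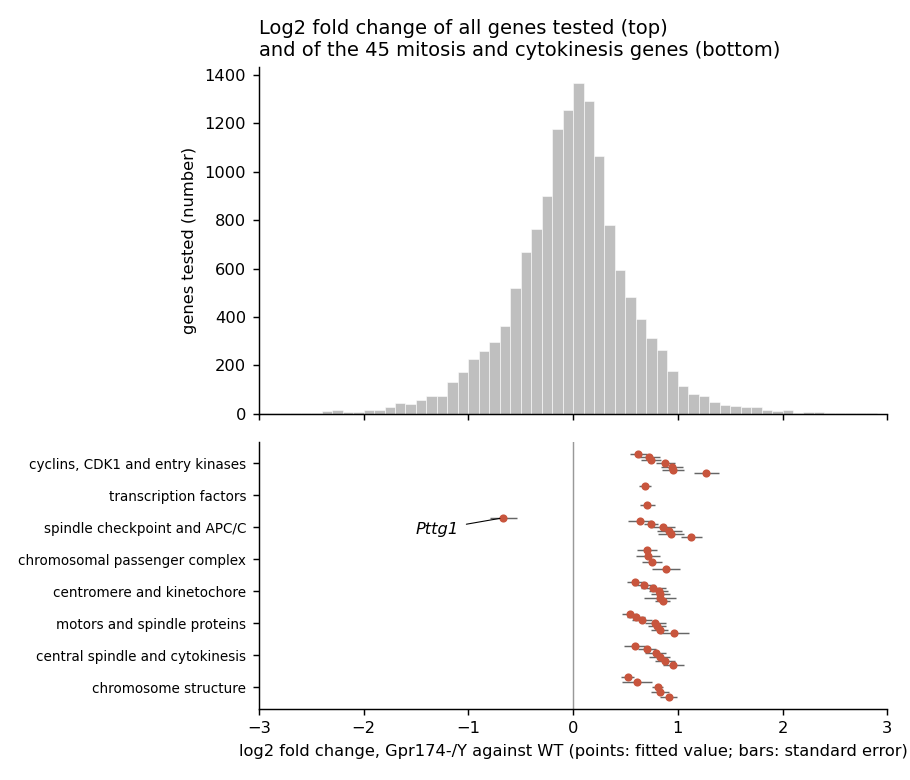
Top, number of genes by log2 fold change of *Gpr174*-/Y against WT for the 14395 genes tested, with 19 genes beyond the axis; bottom, fitted log2 fold change of each of the 45 mitosis and cytokinesis genes by role, with bars for the standard error. All members but *Pttg1* (-0.66) lie between 0.52 and 1.27, to the right of the centre of all genes.

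**Figure D3:**
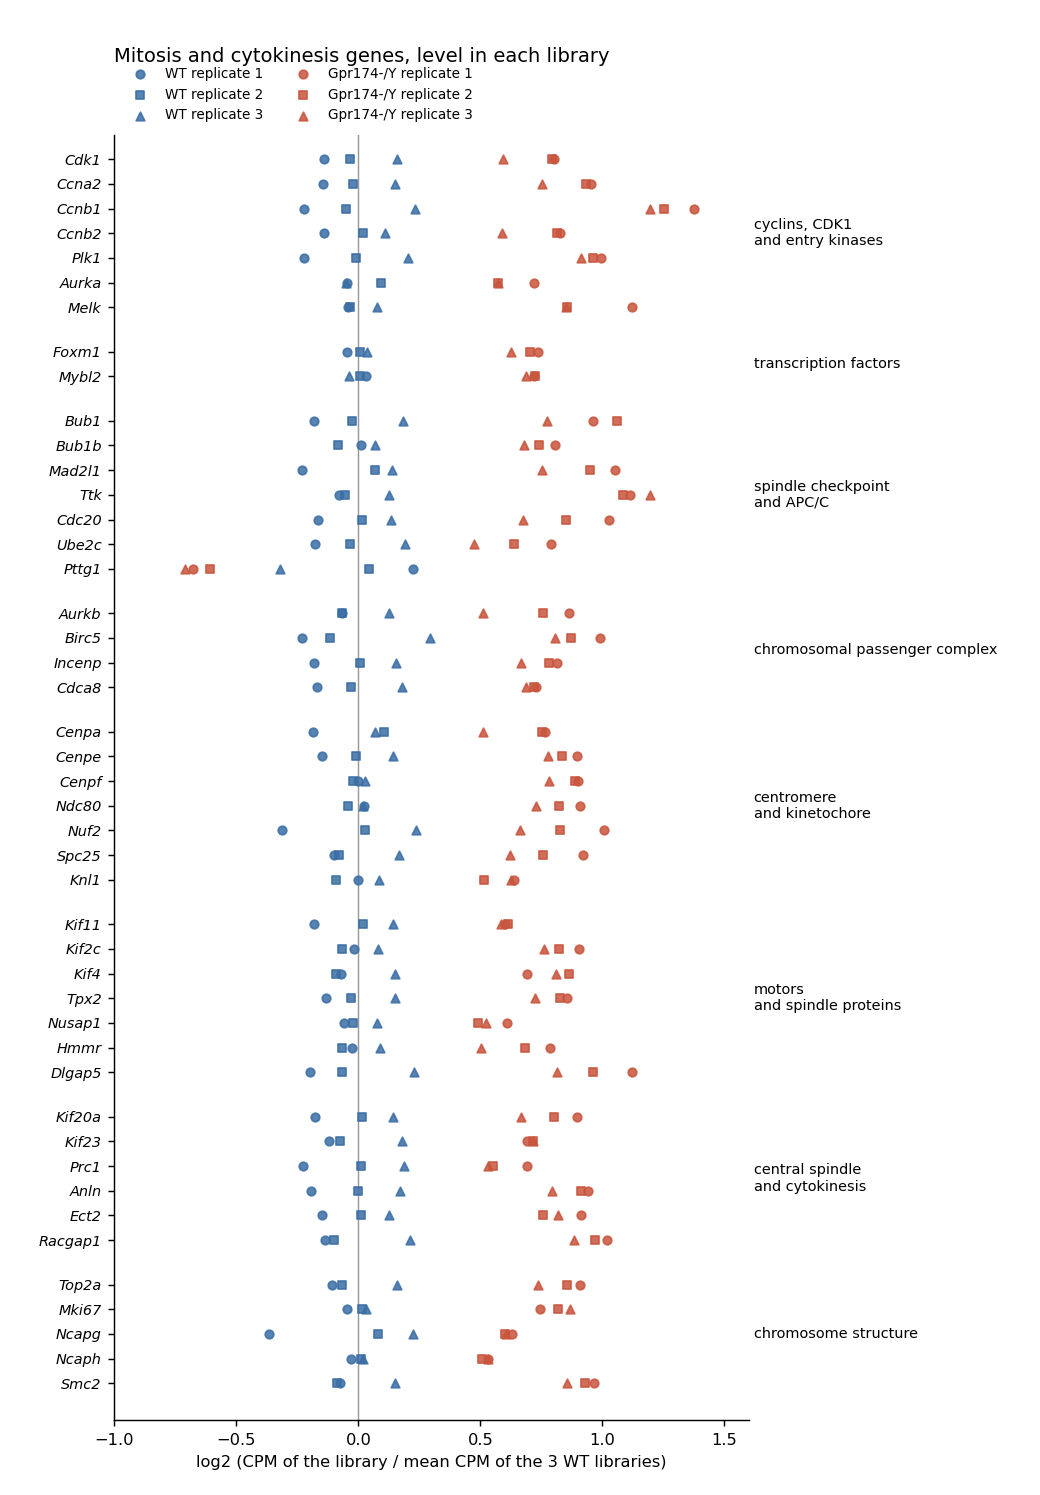
Level of each mitosis and cytokinesis gene in each of the 6 libraries, as the log2 ratio of its CPM to the mean CPM of the 3 WT libraries, grouped by role (blue, WT; red, *Gpr174*-/Y; circle, square and triangle, replicates 1, 2 and 3). The groups are separate in every row, on opposite sides for *Pttg1* compared with the other genes.

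Cyclins, CDK1 and the kinases of mitotic entry numbered 7, and all rose, with a median log2 fold change of 0.88. *Cdk1* encodes the kinase that starts mitosis, and its level was 15.5, 16.7 and 19.0 CPM in WT replicates 1, 2 and 3 and 29.7, 29.6 and 25.7 CPM in *Gpr174*-/Y replicates 1, 2 and 3 (log2 fold change 0.73, SE 0.10, adjusted p = 0.00163). Its partner cyclin B1, from *Ccnb1*, was the member with the largest rise, from 7.34, 8.27 and 10.1 CPM to 22.2, 20.4 and 19.6 CPM (log2 fold change 1.27, SE 0.12, adjusted p = 0.000778). The lowest knockout level of *Ccnb1* was thus well above the highest WT level. Cyclin A2, from *Ccna2*, acts from S phase into mitosis and went from 25.5, 27.7 and 31.3 CPM to 54.6, 53.7 and 47.4 CPM (log2 fold change 0.88, SE 0.09, adjusted p = 0.000967). *Plk1*, a kinase of centrosomes, kinetochores and the midbody, went from 10.6, 12.3 and 14.3 CPM to 24.7, 24.2 and 23.4 CPM (log2 fold change 0.95, SE 0.10, adjusted p = 0.00106). In *Cdk1*, *Ccna2*, *Ccnb1* and *Plk1* the highest WT level was that of replicate 3 and the lowest knockout level was also that of replicate 3, so the gap between the groups was smallest in that pair of libraries. The kinase genes *Aurka*, for spindle poles, and *Melk* rose by log2 fold changes of 0.62 and 0.95, and the second B-type cyclin, *Ccnb2*, by 0.74.

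Both transcription factors of the list rose. *Foxm1*, which activates late cell cycle genes, stood at 21.3, 22.1 and 22.5 CPM in WT and 36.6, 35.8 and 33.9 CPM in *Gpr174*-/Y muscles (log2 fold change 0.69, SE 0.06, adjusted p = 0.00062). *Mybl2*, which encodes B-Myb, went from 7.09, 6.96 and 6.74 CPM to 11.4, 11.4 and 11.2 CPM (log2 fold change 0.71, SE 0.07, adjusted p = 0.000846). The replicates of these regulators were close together, closer than those of *Cdk1* or *Ccnb1*.

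The spindle checkpoint holds cells in metaphase until every kinetochore is attached, and the anaphase-promoting complex (APC/C) then destroys cyclin B and securin. Of these 7 genes 6 rose and 1 fell. The checkpoint kinase gene *Ttk*, with the fewest counts of any member, stood at 2.92, 2.98 and 3.37 CPM in WT and 6.69, 6.55 and 7.07 CPM in *Gpr174*-/Y muscles, and had the second largest rise (log2 fold change 1.13, SE 0.10, adjusted p = 0.00073). *Bub1b*, which encodes the checkpoint protein BUBR1, went from 12.5, 11.7 and 13.0 CPM to 21.7, 20.8 and 19.9 CPM (log2 fold change 0.74, SE 0.07, adjusted p = 0.000778). *Bub1* and *Mad2l1*, 2 further checkpoint genes, had log2 fold changes of 0.93 and 0.92. *Cdc20* encodes the activator of the APC/C that the checkpoint restrains, and went from 9.40, 10.7 and 11.6 CPM to 21.5, 19.0 and 16.8 CPM (log2 fold change 0.86, SE 0.12, adjusted p = 0.00178). *Ube2c*, the ubiquitin-conjugating enzyme of the APC/C, rose by a log2 fold change of 0.64.

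*Pttg1* encodes securin, the inhibitor of separase that the APC/C removes at anaphase, and was the exception. Its level was 39.5, 34.9 and 27.1 CPM in WT replicates 1, 2 and 3 and 21.1, 22.2 and 20.7 CPM in the knockout replicates (log2 fold change -0.66, SE 0.13, adjusted p = 0.00607). WT replicate 3, the highest WT library for 40 of the 45 members and 6299 of all 14395 genes tested, was the lowest for *Pttg1*. The log2 fold change of *Pttg1* stayed below 0 when each library was left out in turn (-0.79 to -0.53) and when libraries were scaled by total count (-0.38). The groups did not overlap for 2 of its transcripts. XM_006533516.4, with most of the counts, went from 29.6, 26.3 and 19.2 CPM to 15.7, 17.9 and 16.7 CPM, and NM_001131054.2 from 7.04, 5.86 and 4.70 CPM to 2.72, 1.92 and 1.94 CPM. NM_013917.3, at 2.29, 1.85 and 1.83 CPM in WT and 2.64, 2.30 and 2.03 CPM in *Gpr174*-/Y muscles, overlapped between the groups, and NM_001362799.1 had counts only in WT replicates 2 and 3 (0.782 and 1.35 CPM). These transcripts share sequence, and how their shared reads were divided is an estimate. The *Pttg1* promoter printed above, taken at the annotated start, held neither motif, and use of that start was not tested. Of the other members without either motif, *Ncaph* (0.52) and *Nusap1* (0.54) had the smallest rises of the list, and *Mybl2* (0.71), *Nuf2* (0.83), *Birc5* (0.89), *Mad2l1* (0.92) and *Melk* (0.95) had larger log2 fold changes.

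The chromosomal passenger complex corrects wrong attachments at the centromere and later marks the cleavage plane. Its 4 genes all rose, with a median log2 fold change of 0.73. *Aurkb*, the kinase of the complex, went from 9.33, 9.34 and 10.7 CPM to 17.8, 16.5 and 14.0 CPM (log2 fold change 0.72, SE 0.11, adjusted p = 0.00256). *Birc5*, which encodes survivin, went from 10.9, 11.8 and 15.7 CPM to 25.4, 23.4 and 22.3 CPM (log2 fold change 0.89, SE 0.14, adjusted p = 0.00245). The scaffold gene *Incenp* went from 15.1, 17.2 and 19.0 CPM to 30.1, 29.4 and 27.1 CPM (log2 fold change 0.75, SE 0.09, adjusted p = 0.00136). Borealin, from *Cdca8*, completed the complex with a log2 fold change of 0.71. The 4 subunits thus differed less among themselves in log2 fold change, from 0.71 to 0.89, than the checkpoint genes did.

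All 7 centromere and kinetochore genes rose, with a median log2 fold change of 0.82. *Cenpa* encodes the histone H3 variant that marks the centromere and went from 10.5, 12.8 and 12.5 CPM to 20.2, 20.1 and 17.0 CPM (log2 fold change 0.68, SE 0.11, adjusted p = 0.00265). The NDC80 complex grips microtubule ends, and its subunit genes *Ndc80*, *Nuf2* and *Spc25* had log2 fold changes of 0.82, 0.83 and 0.77. *Cenpe*, a kinetochore motor, had 0.83, *Cenpf*, a large protein of the outer kinetochore, 0.86, and *Knl1*, the platform of the checkpoint proteins, 0.59.

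All 7 motors and spindle proteins rose, with a median log2 fold change of 0.79. *Kif11* encodes the kinesin that pushes the spindle poles apart, and went from 16.7, 19.2 and 20.96 CPM to 28.8, 29.1 and 28.5 CPM (log2 fold change 0.60, SE 0.08, adjusted p = 0.00189). *Dlgap5*, a spindle protein also called HURP, had the next largest rise after *Ccnb1* and *Ttk*, from 4.73, 5.18 and 6.35 CPM to 11.8, 10.5 and 9.54 CPM (log2 fold change 0.97, SE 0.14, adjusted p = 0.00189). *Nusap1*, which bundles spindle microtubules, was close to the bottom, from 10.3, 10.6 and 11.4 CPM to 16.4, 15.1 and 15.4 CPM (log2 fold change 0.54, SE 0.07, adjusted p = 0.0015). Between them lay *Kif2c*, a microtubule depolymerase (0.83), *Tpx2*, which activates Aurora A (0.80), *Kif4*, a chromokinesin (0.79), and *Hmmr* (0.66).

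The 6 genes of the central spindle and the cleavage furrow rose with a median log2 fold change of 0.81. *Anln* encodes anillin, the scaffold of the contractile ring, and went from 14.996, 17.1 and 19.3 CPM to 32.9, 32.2 and 29.7 CPM (log2 fold change 0.88, SE 0.10, adjusted p = 0.00107). The centralspindlin genes *Racgap1* and *Kif23* had log2 fold changes of 0.96 and 0.70, and *Ect2*, the exchange factor that centralspindlin recruits to activate RhoA, had 0.83. *Kif20a*, the kinesin MKLP2, had 0.79 and *Prc1*, which bundles the midzone microtubules, had 0.59.

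Of the 5 chromosome structure genes all rose, with a median log2 fold change of 0.81. *Mki67*, the gene of the Ki-67 proliferation antigen, had the smallest standard error of the members, at 50.3, 52.6 and 53.0 CPM in WT and 87.0, 91.5 and 94.8 CPM in *Gpr174*-/Y muscles (log2 fold change 0.81, SE 0.05, adjusted p = 0.000433). *Top2a*, which encodes the topoisomerase that untangles sister chromatids, went from 37.3, 38.4 and 44.9 CPM to 75.4, 72.8 and 66.9 CPM (log2 fold change 0.83, SE 0.09, adjusted p = 0.000918). In *Mki67* the knockout replicate 1 was the lowest of its group, whereas it was the highest for 37 of the 45 members. Of all 14395 genes tested it was the highest for 6363. The condensin genes were unequal, since *Smc2*, a core subunit shared by both condensins, rose by a log2 fold change of 0.92 and the condensin I subunits *Ncapg* and *Ncaph* by 0.61 and 0.52. *Ncaph* had the smallest rise of the list, from 9.71, 9.999 and 10.1 CPM to 14.3, 14.1 and 14.3 CPM (SE 0.06, adjusted p = 0.00119).

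The summed level of the 45 genes was 575, 611 and 667 CPM in WT replicates 1, 2 and 3 and 1073, 1038 and 978 CPM in the *Gpr174*-/Y replicates, a ratio of the means of 1.67. The groups did not overlap, and spread between replicates was wider in WT, with a median coefficient of variation over the members of 10.4% against 5.48%. Over all genes tested it was also wider in WT, at 8.87% against 5.12%. For levels compared between genes the deposited FPKM, which is scaled for length, was used. On that scale *Pttg1* was the highest member in WT (44.4 ± 6.48 FPKM, SD, n = 3), and *Ube2c* the highest in *Gpr174*-/Y muscles (39.3 ± 3.56 FPKM). *Ube2c* stood at 20.98 ± 3.65 FPKM in WT, while *Pttg1* stood at 33.2 ± 1.38 FPKM in *Gpr174*-/Y muscles. *Cenpa* (11.2 ± 2.27 FPKM in WT, 20.8 ± 3.41 in *Gpr174*-/Y) and *Birc5* (9.20 ± 2.29 and 22.1 ± 1.42 FPKM) came next in WT and did not differ from each other beyond their spread in either group. The lowest was *Knl1*, at 0.533 ± 0.0577 and 1.02 ± 0.0666 FPKM.

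A single transcript was listed for 13 members, and 32 had more than 1, up to 7 for *Racgap1*. The share of a gene's counts on its most counted transcript moved by more than 50 percentage points between libraries for 9 members, so transcript makeup was not compared between the groups over the members. *Birc5* is given as a description, chosen after its values were seen. Its transcript NM_009689.2 took 62.7%, 61.2% and 62.7% of the counts in WT and 72.2%, 69.1% and 68.8% in the knockout, a difference of 7.85 percentage points between means of 62.2% ± 0.845 and 70.0% ± 1.87 (SD, n = 3).

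The other genes of the division machinery, taken from 8 lists by function, were mixed in direction. Of 155 tested genes in these lists 93 were higher (60%) and 12 lower (7.74%), 50 did not pass the test, and the median log2 fold change was 0.32, where 27% and 27.6% of all genes tested were higher and lower. *Chmp4c* was too low to be tested. Among the spindle and centrosome genes 22 of 25 were higher and 0 lower (median 0.70), among them *Aspm* (0.77), *Stil* (1.03) and *Troap* (1.03). Among the kinetochore genes 24 of 33 were higher and 0 lower (median 0.50), and *Cenph* (log2 fold change 1.36) and *Sgo1* (1.17), the protector of centromeric cohesion, had the largest values of the 3 named in this list, with *Mad1l1* at 0.56. Of 12 genes of CDK1 control 7 were higher and 2 lower (median 0.61). *Cks2* (0.79), *Cdc25b* (0.74), a phosphatase that activates CDK1, and *Ccnf* (0.66) rose, while *Arpp19* (-0.41) and *Ensa* (-0.47), whose products restrain the phosphatase PP2A-B55 in mitosis, fell. With libraries scaled by total count, *Arpp19* and *Ensa* had smaller log2 fold changes of -0.13 and -0.20.

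The medians of the next 3 lists were smaller. Of the APC/C genes and of the condensin and cohesin genes, 9 of 16 each were called either way, close to the 54.6% of all genes. By direction they were not close to all genes, of which 27% were higher and 27.6% lower. Of the APC/C genes 43.75% were higher and 12.5% lower, and of the condensin and cohesin genes 56.25% and 0%. Of 16 APC/C genes 7 were higher and 2 lower (median 0.15), with *Espl1*, which encodes separase, at 0.58, *Cdc27* at 0.38 and *Cdc23* at 0.22, and *Anapc13* at -0.73 and *Anapc5* at -0.46 (with total-count scaling, -0.45 and -0.18). Of 16 condensin and cohesin genes 9 were higher and 0 lower (median 0.16), with *Ncapg2* at 0.84, *Smc4*, the core partner of SMC2, at 0.48 and *Ncapd2* at 0.31. Of 17 other cytokinesis genes 10 were higher and 3 lower (median 0.24). *Kif14* (0.79), *Septin9* (0.63) and *Septin11* (0.50) rose, and *Vps4a* (-0.45), *Spast* (-0.24) and *Diaph1* (-0.17) fell. With total-count scaling *Vps4a* had a log2 fold change of -0.17, and *Spast* and *Diaph1* had 0.04 and 0.10.

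Among the 21 genes of DREAM, MuvB, E2F and NF-Y, 7 were higher (33.3%) and 4 lower (19.0%), against 27% and 27.6% of all genes tested, and the median log2 fold change was 0.07. Either way 11 of 21 were called, close to the 54.6% of all genes tested. The 11 calls of this list became 6 without WT replicate 2, 7 without *Gpr174*-/Y replicate 1 and 6 without *Gpr174*-/Y replicate 2. The E2F genes *E2f8* (1.31), *E2f1* (0.57) and *E2f7* (0.51) rose, whereas *E2f6* (-0.75), *Tfdp2* (-0.45) and *Lin52*, a MuvB subunit (-0.40), fell. With total-count scaling these 3 falls were smaller, at -0.47, -0.17 and -0.12. Of 15 G1/S cyclins, CDKs and CDK inhibitors 7 were higher and 1 lower (median 0.32). These 8 calls were also close to the 54.6% of all genes tested. By direction 46.7% were higher and 6.67% lower, against 27% and 27.6% of all genes tested. *Cdk6* (0.75), *Cdk4* (0.45) and *Cdk2* (0.41) rose, and the inhibitor gene *Cdkn1b* fell (-0.23), but had a log2 fold change of 0.04 with total-count scaling. Of the other inhibitor genes, *Cdkn1a* (0.95, edgeR adjusted p = 0.00475) and *Cdkn2c* (0.32, edgeR adjusted p = 0.0113), named after their values were seen, rose, and 4 did not pass the test. All genes named as changed in these lists passed edgeR's test at an adjusted p under 0.05.

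**Figure D4:**
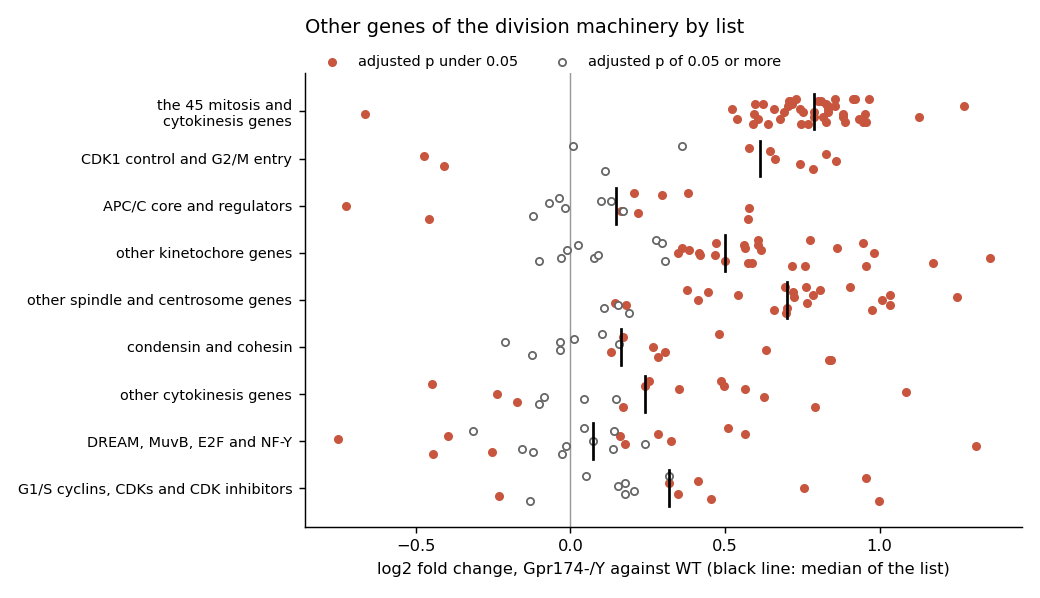
Log2 fold change of *Gpr174*-/Y against WT for the 45 mitosis and cytokinesis genes and for 155 other genes of the division machinery by list (filled points, adjusted p under 0.05; open points, 0.05 or more; black line, median). The medians are 0.79 for the 45 genes, 0.70 for other spindle and centrosome genes, 0.50 for other kinetochore genes and 0.07 for the DREAM, MuvB, E2F and NF-Y genes.

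Markers of the cell types in the muscle moved between the groups as well, and their part in the rise of the mitosis genes was not tested. Of all genes tested, 27% were higher and 27.6% lower. The sums are shares of the RNA of each library and not cell numbers. Macrophage markers summed to 1382, 1688 and 2142 CPM in WT replicates 1, 2 and 3 and to 3261, 3271 and 3289 CPM in the *Gpr174*-/Y replicates, with 8 of 8 higher. *Adgre1*, which encodes F4/80, had a log2 fold change of 0.84 (SE 0.16, adjusted p = 0.0058), close to the median of the mitosis genes. Markers of myogenic progenitors and regenerating fibres summed to 2763, 3843 and 5399 CPM and to 6345, 5942 and 5344 CPM, which overlap, with 7 of 10 higher and 0 lower. *Myog*, the regulator of myoblast differentiation, rose (log2 fold change 1.42, SE 0.21, adjusted p = 0.00202), while *Pax7*, the gene of satellite cells, did not pass the test (0.35, SE 0.13, adjusted p = 0.0515), nor did embryonic myosin *Myh3* (0.85, SE 0.41, adjusted p = 0.124). Fibroblast markers summed to 15134, 17850 and 21566 CPM and to 30797, 29386 and 27357 CPM, with 3 genes higher and 3 lower. Their sum was higher in every knockout library, but the single genes were split in direction.

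Mature fibre markers went the other way, from 164609, 143033 and 112676 CPM to 54943, 52931 and 50062 CPM, with 12 of 12 lower. Endothelial markers also fell, from 1072, 989 and 885 CPM to 623, 590 and 550 CPM with 7 of 7 lower, and *Pecam1*, which encodes CD31, had a log2 fold change of -0.63 (SE 0.08, adjusted p = 0.00137). Smooth muscle and pericyte markers summed to between 953 and 997 CPM in WT and between 1099 and 1248 CPM in *Gpr174*-/Y muscles, with 3 higher and 2 lower. T cell markers summed to 12.6, 18.1 and 22.9 CPM in WT and 22.7, 24.2 and 24.4 CPM in *Gpr174*-/Y muscles with 0 of 5 tested called, *Trac* at 0 or not listed, and *Cd3e* at a log2 fold change of -0.19 (SE 0.35, adjusted p = 0.664). B cell markers summed to between 1.91 and 3.25 CPM over all libraries with 0 of 2 tested called, neutrophil markers to between 16.1 and 31.4 CPM with 1 of 1 tested higher, and erythroid markers to between 152 and 440 CPM with 0 of 5 called.

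The sum of the mitosis genes was also set against the marker sums within each library. Per 100 CPM of macrophage markers the 45 genes summed to 41.6, 36.2 and 31.1 CPM in WT and to 32.9, 31.7 and 29.7 CPM in *Gpr174*-/Y muscles. Per 100 CPM of fibroblast markers they summed to between 3.09 and 3.80 CPM in WT and between 3.48 and 3.58 CPM in *Gpr174*-/Y muscles, and per 100 CPM of myogenic markers to between 12.4 and 20.8 CPM and between 16.9 and 18.3 CPM. In these 3 ratios the groups overlapped, in the macrophage ratio through WT replicate 3 only. The ratios are a description, and what cell content contributed to the rise was not tested. Per 100 CPM of endothelial markers the sum was 53.6, 61.8 and 75.4 CPM in WT and 172, 176 and 178 CPM in *Gpr174*-/Y muscles, with no overlap, and the ratio to mature fibre markers did not overlap either.

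**Figure D5:**
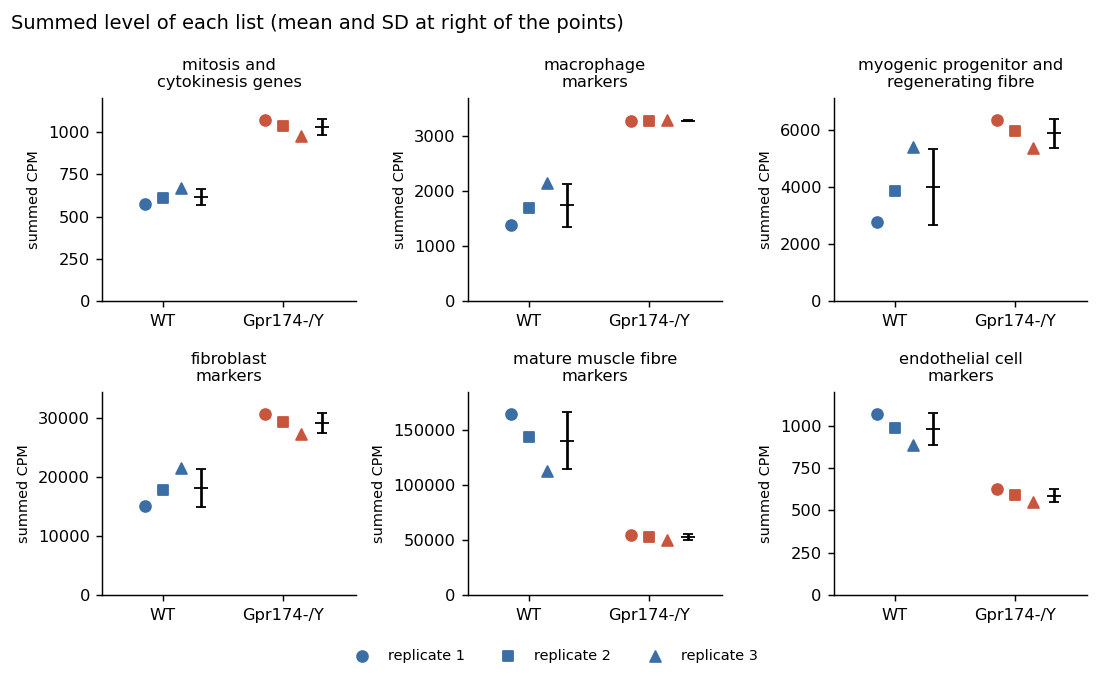
Summed CPM per library of the 45 mitosis and cytokinesis genes and of the markers of 5 cell types in WT and *Gpr174*-/Y muscles, with the mean and SD of each group at the right of its points (n = 3, circle, square and triangle for replicates 1, 2 and 3). The mitosis genes lie between 575 and 667 CPM in WT and between 978 and 1073 CPM in *Gpr174*-/Y muscles, the sums of macrophage and of fibroblast markers are also higher in every *Gpr174*-/Y library, and those of fibre and endothelial markers are lower.

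Scaling affected how large the changes were. When libraries were scaled by their total counts instead of TMM, the median log2 fold change of all genes tested was 0.28 and that of the members 1.06, and 50.7% of all genes were called higher against 14% lower. Under that scaling 44 members were higher and *Pttg1* was lower, and 28 members passed a log2 fold change of 1, against 7.95% of all genes.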

How the data were processed

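The authors deposited 1 table of 58843 transcripts holding expected counts, which are estimates of the reads from each transcript and were not normalized, and FPKM values, which account for transcript length and depth. The deposited table also holds TPM, which was not used. The submitters' processing notes name HISAT2 2.0.4, Bowtie2 2.2.5, RSEM 1.2.12 and GRCm39; strand use is not given in the sources used here. No batch is labelled.

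Expected counts were summed per gene and rounded (18089 genes, 99.7% with a symbol). Groups came from the sample titles. WT and *Gpr174*-/Y libraries were compared with edgeR 4.0.16 in R 4.3.3 (TMM, its filter on low counts, robust quasi-likelihood test, Benjamini-Hochberg adjustment over 14395 genes). The study's methods name DEGseq, which was not run because it has no term for the spread between mice. Tested on simulated data on 14395 genes for this comparison, edgeR recovered 92% of 100 genes changed by a log2 fold of 1. It recovered 59% of 100 genes changed by 0.5, and called 0.08% of unchanged genes. Those data held 200 changed genes, whereas 54.6% of the genes were called in the main comparison. They also gave every gene the same biological spread in both groups, whereas the WT replicates lay further apart than the *Gpr174*-/Y ones. Whether these shares hold for the muscle libraries was not tested.

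The members and lists were chosen with earlier results of these data known. Every member is named, with values of each library for genes preset by name and for the 3 highest and 3 lowest log2 fold changes, and up to 3 genes of lowest adjusted p per direction in each other list. Promoter sequences are from RefSeq on GRCm38.p6, and no other coordinates are given since the notes name another build. The same-numbered libraries are different mice.

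Alternatives were DESeq2 1.42.0, limma 3.58.1 (voom, and its trend fit to log2(FPKM + 1) or log2(FPKM + 0.1) where 3 libraries reached an FPKM of 1), upper-quartile and total-count scaling, omission of the filter, a minimum of 10 counts per library, a test against a 1.2-fold change, a replicate block, leaving out each library, and replicates 1 and 3 only. limma voom and DESeq2 on replicates 1 and 3 were added after seeing the data. Other scripts used Python 3.11.15, pandas 2.3.3 and scipy 1.17.1.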

Additional observations from a re-analysis of the deposited data

How the results depend on the processing

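Over 18 alternatives set at the start and 2 added after seeing the data, 898 comparisons of a member with an alternative kept its direction, 796 kept its side of the threshold, and the other 102 no longer passed it. All 102 came from replicates 1 and 3 of each group alone, where edgeR called 0 members higher, 0 lower, 0 past the fold threshold and 0 of all genes in any list, limma voom called 0, 0 and 0 members and 17 of all genes (17 with the fold threshold, 0 in each other list), and DESeq2 called 2299 of all genes (755 with the fold threshold), with 4 genes of CDK1 control, 1 of the APC/C, 1 of the other kinetochore genes, 8 of the spindle, 2 of condensin and cohesin, 4 of cytokinesis, 2 of DREAM, MuvB, E2F and NF-Y and 2 of G1/S. These fits hold fewer samples. Members past the fold threshold (2) numbered 28 with total counts, 9 with log2(FPKM + 1) and 26 with log2(FPKM + 0.1), where 44 of the 45 members passed the FPKM filter. Leaving out each library gave 44 to 44 members higher, 2 to 9 past the fold threshold (9 without WT replicate 3, 5 without *Gpr174*-/Y replicate 3), a median log2 fold change of 0.74 to 0.87, 5457 to 9165 of all genes called (7863 in the main comparison), 924 to 1826 past the fold threshold (1192; 1826 without WT replicate 3) and 6 to 15 of the DREAM, MuvB, E2F and NF-Y genes (11; 6 without WT replicate 2, and 7 and 6 without knockout replicates 1 and 2). The median of the members (0.79) was 1.06 with total counts and 1.04 with log2(FPKM + 0.1), and their summed ratio (1.67) was 2.01 with total counts. The test against a 1.2-fold change called 4275 of all genes, 2 APC/C genes (9), 15 other kinetochore genes (24), 4 condensin and cohesin genes (9), 7 cytokinesis genes (13), 5 DREAM, MuvB, E2F and NF-Y genes (11) and 5 G1/S genes (8). Condensin and cohesin numbered 14 with total counts and with both FPKM scales, and log2(FPKM + 1) called 645 of all genes past the fold threshold. Apart from scaling, FPKM and the stricter test, the cause was not tested.

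With the replicate number as a block, 44 members were higher, 1 was lower, and the median was 0.79. The numbers do not pair mice, and the correlation of the deviations of same-numbered libraries over 14395 genes was 0.0163, -0.0281 and -0.00839. At between 18417077 and 19394469 counts per library, *Gpr174* was close to the detectable level, whereas the lowest count of a member was 47.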
